A study of Mus musculus with 15 samples.

Results

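Alternative splicing was followed in 43 mouse genes of energy metabolism, listed by name: enzymes of glycolysis and glycogen handling, the glucose transporter of muscle, enzymes of fat oxidation, pyruvate entry and the citrate cycle, an ATP synthase subunit, mitochondrial carriers, and the proteins that fuse, divide and shape mitochondria. Every splicing event of these genes was taken, whatever its type, which gave 141 of the 39123 events in the table. Events named by coordinates were assigned through the gene symbol, and alternative first and last exons through the gene ID. An event was found for 33 of the 43 genes. Pfkm, Ldhb, Pgam2, Gapdh, Pygm, Hk2, Ppara, Hadhb, Pdk4 and Cs had no event there and are not analysed here. Of the 141 events, 139 in 32 genes were measured in every one of the 15 libraries, and these entered the test together with the other events of this kind, 31267 in all.

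Muscle fibres take up glucose through a transporter that moves to the surface membrane, store it as glycogen, and release it again when phosphorylase kinase switches on glycogen breakdown. Pyruvate from glycolysis and fatty acids carried in by the carnitine shuttle are both oxidised in mitochondria. These organelles form a network that is joined by mitofusins in the outer and Opa1 in the inner membrane, and cut by the dynamin-related protein Dnm1l, which is recruited to the outer membrane by receptors such as Mff. Several of these genes have forms made mainly in muscle, among them those of pyruvate kinase, the phosphate carrier and the gamma subunit of ATP synthase.

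The study used mice made to express an RNA with expanded CUG repeats, the kind of RNA that causes myotonic dystrophy by binding the muscleblind-like splicing factors. All animals carried TREDT960I-HOM. The 6 induced libraries came from animals that also had MDAFrtTA and received doxycycline, 2 each at 6, 12 and 20 weeks of age, with induction at postnatal day 1. The 3 dox control libraries, 1 per age, came from TREDT960I-HOM animals with doxycycline but without MDAFrtTA, and the 6 no dox libraries, 2 per age, from animals with both transgenes and no doxycycline. Those 9 are called controls here. The promoter behind MDAFrtTA is not given in the sources used here. Quadriceps was the source of 5 libraries (2 induced and 3 no dox) and gastrocnemius of 10, and all libraries but week 6 no dox replicate 2 were from females. No animal numbers are given, so a p-value measures the spread between these libraries.

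Each event has a percent spliced in (PSI), the fraction of transcripts, from 0 to 1, that carry a given form. For a skipped exon this is the fraction that include the exon, and for a retained intron the fraction that keep it. For other events the file does not say which form is counted, so their PSI is given without naming the form. Libraries had values for 34416 to 36959 events, and their PSI correlated pairwise with a Pearson's r of 0.943 to 0.968. The fractions come without read counts, which leaves the depth of a value unknown. PSI holds no transcript level, so the muscle identity of the libraries could not be checked from marker levels.

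The exon printed here is the 159-nt exon of Mff, shown because 4 skipped exon events of the receptor for mitochondrial fission turn on it. It lies on the plus strand at chr1:82741818-82741976 (GRCm38.p6, RefSeq), and is printed 5′ to 3′ in capitals with 20 nt of intron on each side in lower case. Mff 159-nt exon: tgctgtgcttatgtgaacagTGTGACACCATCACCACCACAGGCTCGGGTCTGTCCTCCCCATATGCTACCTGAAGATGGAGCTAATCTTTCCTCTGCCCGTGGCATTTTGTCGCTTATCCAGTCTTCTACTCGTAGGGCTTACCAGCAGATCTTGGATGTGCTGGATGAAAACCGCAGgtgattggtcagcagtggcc. The exon is preceded by AG and followed by GT, the usual ends of an intron, and its length is a multiple of 3, so that skipping it keeps the reading frame. A long noncoding RNA, Gm39668, is annotated on the same strand from 7 nt after the exon's end, and reads of the 2 genes could not be told apart there.

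The 141 events comprised 55 skipped exons, 8 retained introns, 15 pairs of mutually exclusive exons, 30 events of last and 13 of first exons, and 11 choices of a 3′ and 9 of a 5′ splice site. Mff had 23 of them, Immt 19 and Dnm1l 11, so these 3 genes of mitochondrial shape weigh heavily in every count, and their events share exons. Over the 15 libraries, 42 of the 139 tested events had a mean PSI under 0.05 and 31 one over 0.95. The other 66 events, in 18 genes, lay between, which is 47.5% of the members against 70.2% of all tested events. The median range of PSI over the libraries was 0.04 for members and 0.15 for all tested events, and 22 members had the same value in every library. Among the 47 distinct skipped exons 28 were a multiple of 3 nt long, and among the 18 distinct exons with a mean PSI between 0.05 and 0.95 it was 13.

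**Figure D1:**
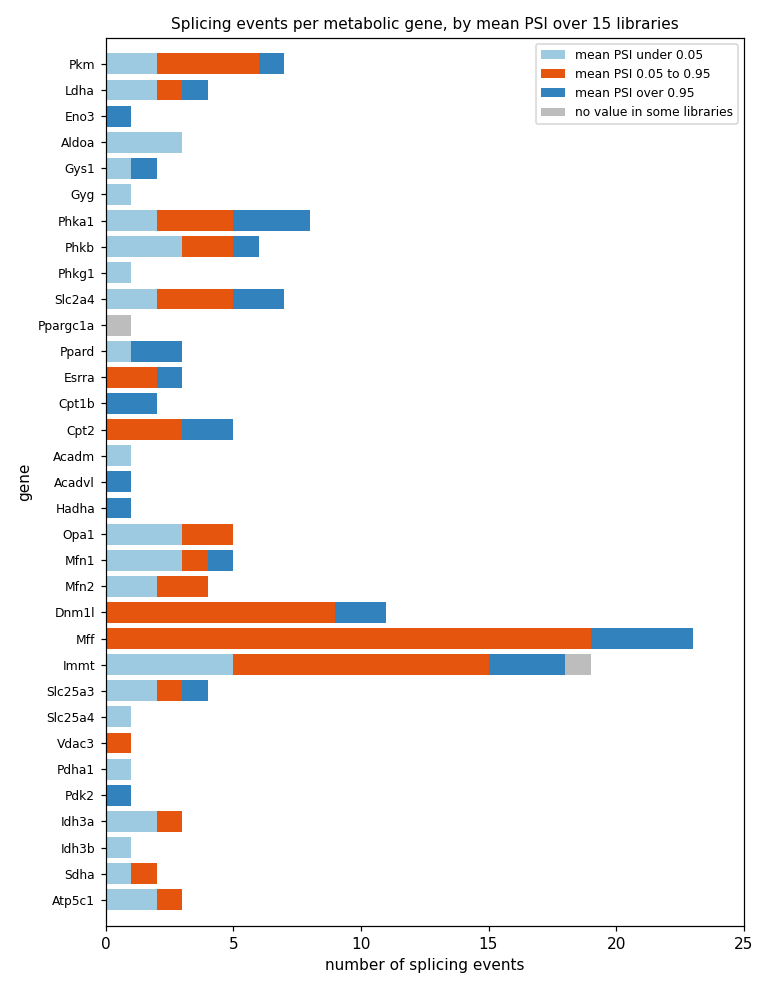
Number of splicing events (horizontal axis) in each of the 33 genes with an event (vertical axis), coloured by the mean PSI over 15 libraries. Mff with 23, Immt with 19 and Dnm1l with 11 events have the longest bars, and most of their events lie between 0.05 and 0.95.

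The main comparison asked whether muscle with the induced repeat splices these genes differently from control muscle. Mitochondrial shaping genes held the events with the smallest p-values: inclusion of a 54-nt exon of Opa1 averaged 0.272 ± 0.065 over the 6 induced libraries and 0.422 ± 0.073 over the 9 controls (SD), and that of a 172-nt exon of Mff 0.137 ± 0.037 and 0.207 ± 0.040. Neither passed the threshold. No event of the 139 was called by limma (adjusted p under 0.05 over all tested events and a difference of at least 0.1), where 0.0064% of all tested events were. At an unadjusted p under 0.05 there were 8 members, which is 5.76% against 6.26% of all tested events. Of the 8, 1 was higher in induced muscle (0.719% of members against 3.06% of all tested events) and 7 were lower (5.04% against 3.2%). The lower events included several of Mff, some of which share an exon, so they are not independent. In the same fit, 6 of the 66 member events with a mean PSI of 0.05 to 0.95 had such a p, against 7.08% of all events in that range. A separate fit of the events in that range alone gave 4 of 66, or 6.06% against 6.2%. The exact permutation test, which shuffled libraries across ages and muscles, gave 6 members at an unadjusted p under 0.05 (4.32% against 4.95% of all tested events).

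Differences and their SE are fitted values adjusted for muscle. With all 15 libraries, the induced difference averaged over the ages equals the difference of the group means, with or without the muscle term. Within an age, and in the other comparisons, a fitted difference need not equal it. Induced differences were small for most members. The induced difference was under 0.05 in size for 130 of 139 events, and its median size was 0.0039 for members and 0.0133 for all tested events. The 3 events of at least 0.1 were the 54-nt exon of Opa1, a last exon of Immt (0.148, SE 0.098, limma adjusted p = 0.894) and a 177-nt exon of Phka1 (-0.109, SE 0.063, limma adjusted p = 0.871). No member had all 6 induced libraries on one side of all 9 controls, which 0.125% of all tested events did, or 0.0832% with a difference of at least 0.1. The spread was larger in induced than in control libraries for 34 of the 66 events. Leaving out induced replicate 2 of week 6 gave 3 members in place of 8 (2.16% against 4.6% of all tested events). Leaving out induced replicate 1 of week 20, no dox replicate 2 of week 20 or the dox control of week 6 or of week 12 gave 5 (3.6% against 5.95% to 6.45%).

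**Figure D2:**
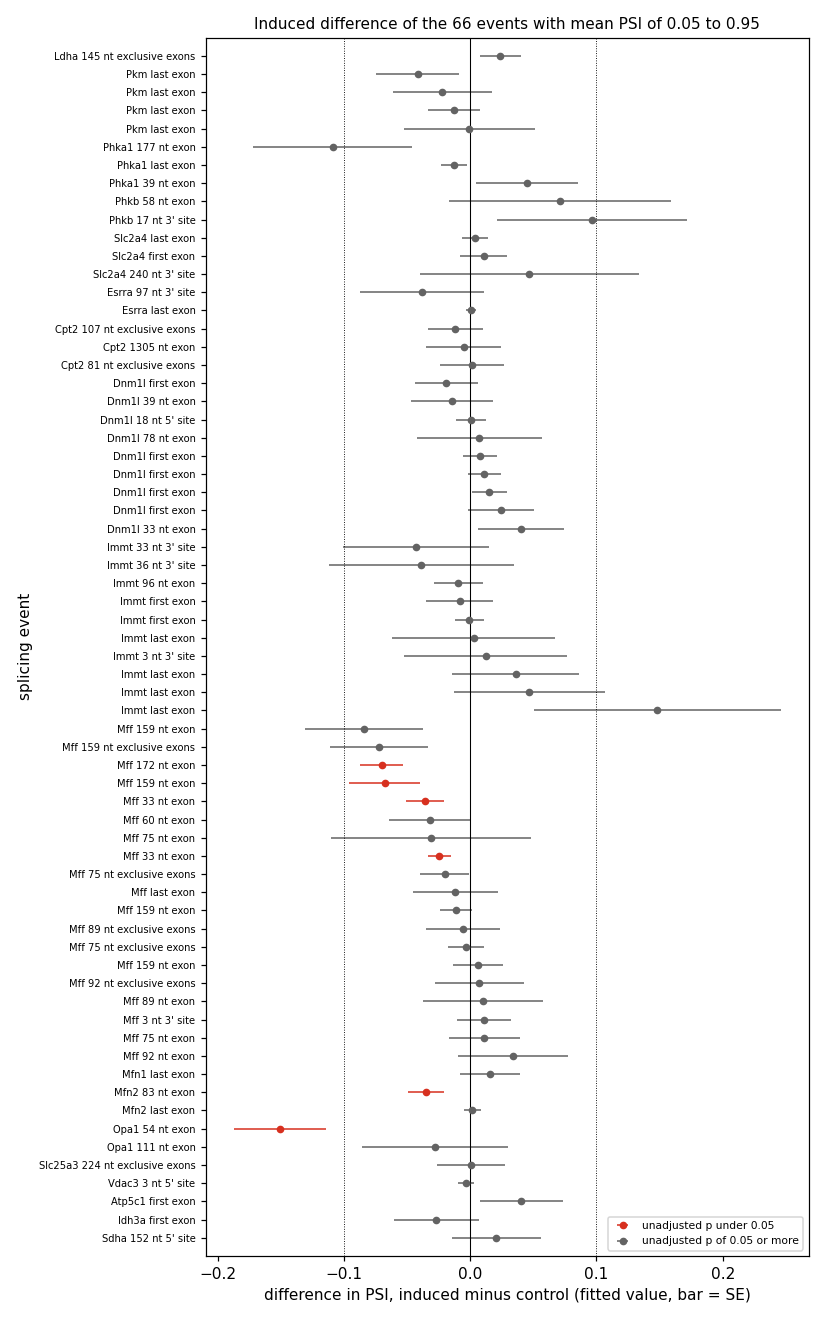
Fitted difference in PSI, induced minus control (horizontal axis), with its SE as a bar, for the 66 events with a mean PSI of 0.05 to 0.95 (vertical axis, ordered by role and gene). Red marks the 6 events with an unadjusted p under 0.05, and dotted lines mark 0.1 in either direction: of the red events, the 54-nt exon of Opa1 at -0.151 lies past them.

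Opa1 is the dynamin-like GTPase that fuses the inner membranes of mitochondria and holds cristae closed, and its alternative exons lie ahead of the GTPase part. The 54-nt exon (chromosome 16, 29588823 to 29588876) had a PSI of 0.17 at the lowest, 0.27 in the median and 0.35 at the highest in induced libraries, against 0.35, 0.38 and 0.53 in controls. In 5 of 6 induced libraries it was below every control, and the sixth, week 20 induced replicate 2, equalled the lowest control. The difference was -0.151 (SE 0.037), with a limma adjusted p = 0.422. Its exact permutation p was 0.0010 unadjusted and 0.4165 adjusted. Within gastrocnemius it was -0.133 (limma adjusted p = 0.994) and within quadriceps -0.100. With week in that fit, each induced difference within quadriceps given here rests on 1 induced and 2 no dox libraries of week 20. Leaving out any one library gave -0.179 to -0.123, each time with an unadjusted limma p under 0.05.

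The other variable exon of Opa1, 111 nt long (chromosome 16, 29597586 to 29597696), ranged more widely. Induced libraries lay at 0.48, 0.60 and 0.76 (lowest, median and highest) and controls at 0.34, 0.67 and 0.82, so the groups overlapped over the whole induced range. The difference was -0.028 (SE 0.058, limma adjusted p = 0.982). The other 3 Opa1 events, a 5′ splice site, a last exon and a retained intron, did not exceed 0.03 in any library.

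Mff is the outer membrane receptor that brings Dnm1l to the sites where mitochondria divide, and its 14 skipped exon events cover 8 distinct exons. The 172-nt exon (chromosome 1, 82728067 to 82728238) lay at 0.10, 0.125 and 0.20 in induced and 0.17, 0.20 and 0.29 in control libraries. As for Opa1, 5 of 6 induced libraries were below every control, and week 20 induced replicate 2, at 0.20, was the one within their range. The difference was -0.070 (SE 0.017), with an exact permutation p of 0.0052 unadjusted and 0.586 adjusted, and a limma adjusted p = 0.420. Within gastrocnemius it was -0.060 (limma adjusted p = 0.994) and within quadriceps -0.065.

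The 159-nt exon printed above (chromosome 1, 82741818 to 82741976) was included in most transcripts, and its value depended on the neighbouring exons of the event. Between the 89-nt and the 60-nt exon it lay at 0.63, 0.77 and 0.84 in induced and 0.76, 0.83 and 0.92 in control libraries, with 2 of 6 induced libraries below every control. The difference was -0.068 (SE 0.028, limma adjusted p = 0.784), and was -0.042 without week 20 induced replicate 1 and -0.043 without week 12 induced replicate 2. Within gastrocnemius it was -0.090 (limma adjusted p = 0.994) and within quadriceps -0.0050. Between the 89-nt exon and the exon at 82750520 induced libraries had 0.62, 0.735 and 0.92, against 0.75, 0.85 and 0.90 in controls, and 4 of 6 induced libraries were below and 2 above every control (difference -0.084, SE 0.047, limma adjusted p = 0.861). The remaining events of the exon differed by -0.011, with the 33-nt exon next, and 0.0061, with the 75-nt exon before it. The 4 events share the exon's reads and are not independent measurements.

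A 33-nt exon of Mff (chromosome 1, 82745524 to 82745556) was rarely included. After the 159-nt exon it lay at 0.07, 0.10 and 0.12 in induced and 0.10, 0.12 and 0.16 in control libraries (difference -0.024, SE 0.0089, limma adjusted p = 0.706). After the 89-nt exon it lay between 0.06 and 0.08 in induced and between 0.04 and 0.15 in control libraries (difference -0.036, SE 0.015, limma adjusted p = 0.788). Its control values overlapped the induced ones in both events. The events share the exon's reads and are not independent measurements, and both count among the 8 members at an unadjusted limma p under 0.05. Within gastrocnemius and within quadriceps the difference was -0.026 and -0.015 after the 159-nt exon, and -0.028 and -0.090 after the 89-nt exon. The 60-nt exon itself, between the 89-nt exon and the exon at 82750520, averaged 0.808 ± 0.076 over the 6 induced libraries and 0.840 ± 0.035 over the 9 controls (SD). The 75-nt exon, between the same neighbours, had the widest range in Mff, with 0.07, 0.205 and 0.65 in induced and 0.15, 0.24 and 0.48 in control libraries.

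The mitofusins Mfn1 and Mfn2 join outer membranes. An 83-nt exon of Mfn2 (chromosome 4, 147902928 to 147903010) was at 0.84, 0.945 and 0.96 in induced and 0.93, 0.96 and 0.97 in control libraries. The groups overlapped, with 2 induced libraries, week 6 replicate 2 at 0.84 and week 12 replicate 2 at 0.89, below every control. The difference was -0.035 (SE 0.014, limma adjusted p = 0.762), with -0.054 (limma adjusted p = 0.0892) when week 6 induced replicate 1 was left out and -0.016 (limma adjusted p = 1.0) when replicate 2 of that week was left out. It was -0.020 within gastrocnemius and -0.020 within quadriceps. In Mfn1 a last exon event averaged 0.610 in induced and 0.594 in control libraries, and the other 4 events had means under 0.05 or over 0.95.

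Dnm1l, the GTPase that constricts mitochondria, had 9 events with intermediate PSI. None reached an unadjusted limma p under 0.05 for induced against controls averaged over the ages. Its 78-nt exon (chromosome 16, 16318764 to 16318841) lay at 0.42, 0.48 and 0.68 in induced and 0.38, 0.49 and 0.67 in control libraries, and the groups covered the same range (difference 0.0072, SE 0.050). The adjoining 33-nt exon averaged 0.193 ± 0.073 over the 6 induced libraries and 0.153 ± 0.081 over the 9 controls (SD), and a 39-nt exon further upstream in the transcript (chromosome 16, 16342697 to 16342735) 0.190 ± 0.065 and 0.204 ± 0.049. All 3 exons are multiples of 3 nt long.

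Immt, the mitofilin protein that builds cristae junctions, had its variable events among alternative last exons and at neighbouring 3′ splice sites. One of these last exons lay at 0.06, 0.505 and 0.59 in induced and 0.03, 0.22 and 0.56 in control libraries. Values near 0.5 and values under 0.1 occurred in both groups. A 96-nt exon (chromosome 6, 71853173 to 71853268) averaged 0.145 ± 0.041 over the 6 induced libraries and 0.154 ± 0.030 over the 9 controls (SD). One last exon event of Immt had values in 7 libraries only and was not tested: 0.43 and 0.41 in induced, 0.10 and 0.55 in dox control and 0.57, 0.42 and 0.43 in no dox libraries.

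**Figure D3:**
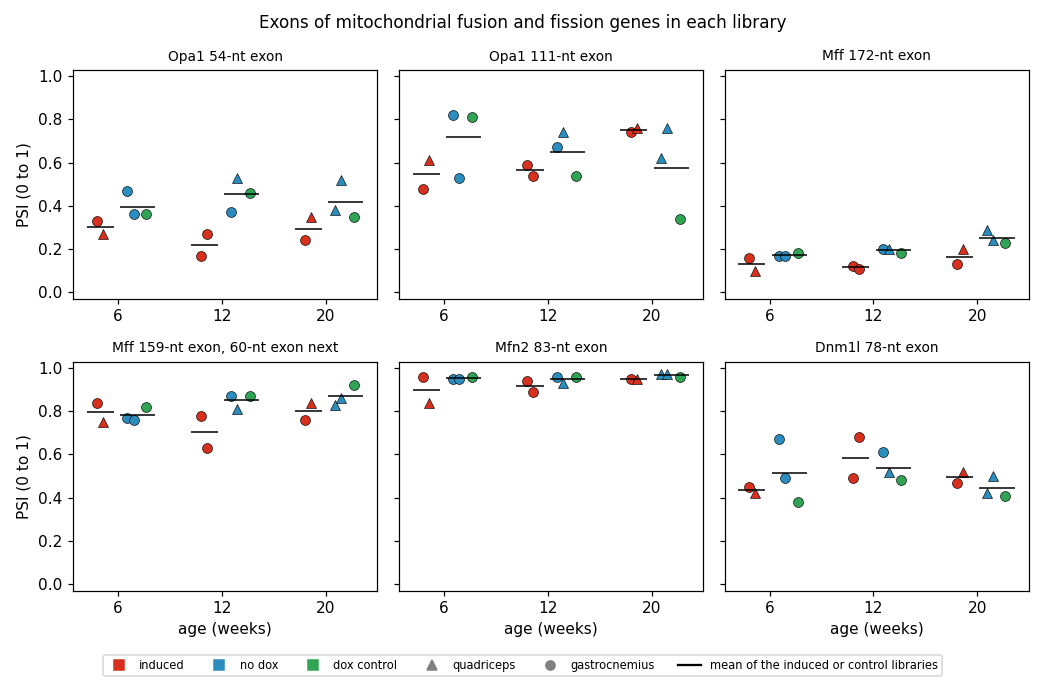
PSI (vertical axis, 0 to 1) of 6 exons of Opa1, Mff, Mfn2 and Dnm1l in each library by age in weeks (horizontal axis), with induced libraries in red, no dox in blue and dox control in green, triangles for quadriceps, circles for gastrocnemius and lines for the mean of the induced or control libraries of an age. The 54-nt Opa1 exon lies at 0.17 to 0.35 in induced and 0.35 to 0.53 in control libraries, while the 111-nt exon and the Dnm1l exon overlap throughout.

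Most events of the glycogen genes lay in subunits of phosphorylase kinase, the enzyme that activates glycogen phosphorylase. In Phka1, its muscle alpha subunit, the 177-nt exon (chromosome X, 102557096 to 102557272) lay at 0.25, 0.425 and 0.58 in induced and 0.41, 0.51 and 0.78 in control libraries. The groups overlapped, with 2 induced libraries below every control. A 39-nt exon (chromosome X, 102532077 to 102532115) lay at 0.51, 0.64 and 0.77 in induced and 0.46, 0.59 and 0.70 in control libraries (difference 0.045, SE 0.041, limma adjusted p = 0.930). In the 58-nt exon of the beta subunit gene Phkb (chromosome 8, 85848674 to 85848731) single libraries spanned 0.21 to 0.62 in induced and 0.08 to 0.74 in control muscle, the widest range of the members (difference 0.071, SE 0.088). A pair of 3′ splice sites of Phkb that lie 17 nt apart lay between 0.43 and 0.84 in induced and 0.28 and 0.82 in control libraries.

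Gyg encodes glycogenin, which primes new glycogen. Its 51-nt exon (chromosome 3, 20123122 to 20123172) was the 1 member higher in induced muscle at an unadjusted p under 0.05, with PSI of 0.02 or 0.03 in induced and 0.01 or 0.02 in control libraries. The difference of 0.0094 (SE 0.0027, exact permutation p = 0.0056 unadjusted and 0.605 adjusted, limma adjusted p = 0.514) is smaller than the step of 0.01 in which PSI is printed. It was 0.0078 within gastrocnemius and 0.010 within quadriceps. The events of Gys1, the glycogen synthase of muscle, stayed within 0.01 of 0 or 1. The 1 event carrying the symbol of Phkg1 lies outside that gene and was 0 in every library.

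In Slc2a4, the glucose transporter that answers to insulin, the widest event was a pair of 3′ splice sites 240 nt apart (chromosome 11, 69945953 to 69946193). It lay at 0.26, 0.66 and 0.86 in induced and 0.34, 0.53 and 0.74 in control libraries, and the induced values enclosed the control range (difference 0.047, SE 0.087, limma adjusted p = 0.981). Retention of the 115-nt intron at the same place did not exceed 0.02 in any library.

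Among glycolytic enzymes no event had an unadjusted limma p under 0.05 for induced against controls. The mutually exclusive 167-nt exons of Pkm, which distinguish the muscle form of pyruvate kinase from the form of dividing cells (chromosome 9, 59675029 to 59675195 and 59675568 to 59675734), had a PSI between 0.98 and 0.99 in induced and between 0.98 and 1.00 in control libraries. In Ldha, a subunit of lactate dehydrogenase, an event of mutually exclusive exons of 145 and 108 nt lay at 0.18, 0.21 and 0.27 in induced and 0.16, 0.19 and 0.23 in control libraries (difference 0.024, SE 0.016, limma adjusted p = 0.894). The 4 last exon events of Pkm with a mean PSI of 0.05 to 0.95 averaged between 0.415 and 0.508 in induced and between 0.428 and 0.526 in control libraries. The widest of them spanned 0.38 to 0.68 in single induced libraries and 0.39 to 0.61 in controls, and the groups overlapped. The events of Aldoa and Eno3 did not move by more than 0.02 between libraries.

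**Figure D4:**
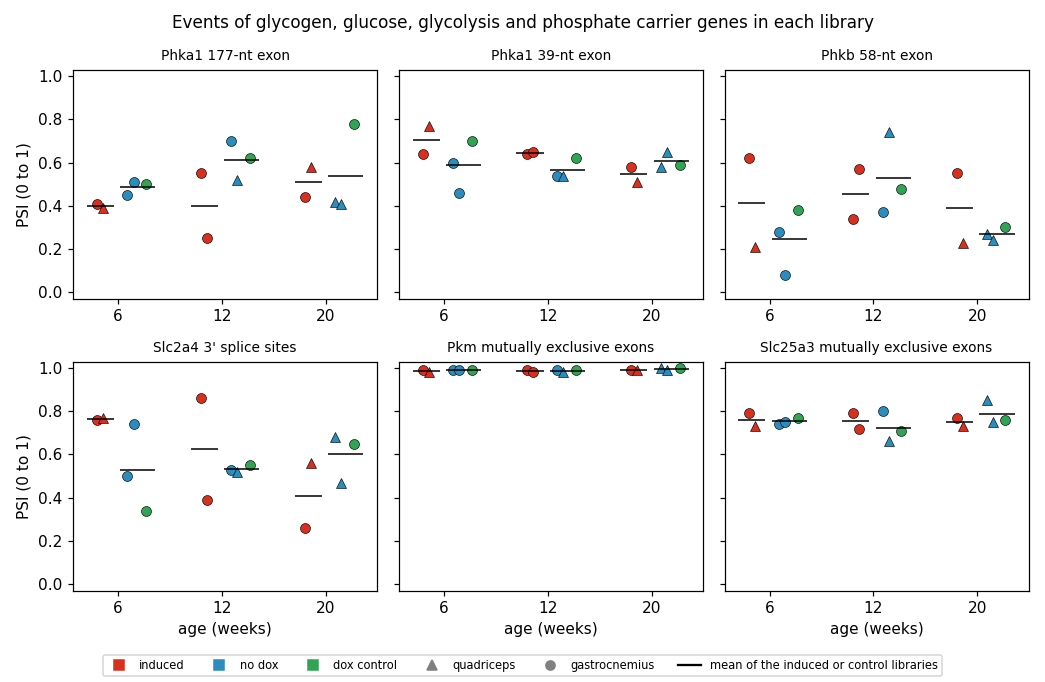
PSI (vertical axis, 0 to 1) of events of Phka1, Phkb, Slc2a4, Pkm and Slc25a3 in each library by age in weeks (horizontal axis), with induced libraries in red, no dox in blue and dox control in green, triangles for quadriceps, circles for gastrocnemius and lines for the mean of the induced or control libraries of an age. Phkb and Slc2a4 spread widely within both groups, while Pkm stays between 0.98 and 1.00.

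Transcription factors that set oxidative capacity gave 1 of the 8 events. Retention of a 104-nt intron of Ppard, a receptor for fatty acids (chromosome 17, 28298480 to 28298583), lay between 0.01 and 0.05 in induced and between 0.03 and 0.07 in control libraries (difference -0.018, SE 0.0075, limma adjusted p = 0.768). Within gastrocnemius the difference was -0.024 and within quadriceps 0.0050. In Esrra, an orphan receptor that drives mitochondrial genes, a pair of 3′ splice sites lay at 0.35, 0.53 and 0.75 in induced and 0.43, 0.59 and 0.75 in control libraries. Ppargc1a, the coactivator of mitochondrial biogenesis, had a single event with values in 4 libraries, 0.30 in week 12 induced replicate 1, 0.59 in the week 6 dox control and 0.28 and 0.65 in no dox libraries, and it was not tested.

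The fat oxidation genes Cpt1b, Acadm, Acadvl and Hadha had events within 0.01 of 0 or 1 in every library. Cpt2, the carnitine palmitoyltransferase of the inner membrane, includes or skips an exon of 1305 nt (chromosome 4, 107906921 to 107908225), whose PSI averaged 0.905 ± 0.089 over the 6 induced libraries and 0.910 ± 0.040 over the 9 controls (SD). Among carriers, a pair of mutually exclusive exons of the phosphate carrier Slc25a3, 224 and 122 nt long, averaged 0.755 ± 0.032 over the 6 induced libraries and 0.754 ± 0.053 over the 9 controls (SD). Another such event of the gene, with a mean PSI outside 0.05 to 0.95, differed by 0.0017 (SE 0.0047). Neither event was matched here to the muscle form of the carrier. A 5′ splice site of the channel gene Vdac3 averaged 0.947 ± 0.012 in induced and 0.95 ± 0.009 in control libraries (SD). The 37-nt exon of Atp5c1, the ATP synthase gamma subunit, which muscle is known to leave out, was at 0.01 to 0.03 in all libraries. A first exon of Idh3a, a subunit of mitochondrial isocitrate dehydrogenase, averaged 0.457 in induced and 0.483 in control libraries, and a 5′ splice site of Sdha, a subunit of succinate dehydrogenase, 0.928 and 0.908. The events of Pdha1 and Pdk2, which govern pyruvate entry, were at 0 and 1 in every library.

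Ages were compared next, to see when a difference was present. At week 6 limma called 0 members (background 0.0032%), with 5 at an unadjusted p under 0.05 (3.6% against 4.17%). The 111-nt Opa1 exon was at 0.48 and 0.61 in induced, 0.81 in dox control and 0.82 and 0.53 in no dox libraries (difference -0.260, SE 0.106). The mutually exclusive exons of Ldha were at 0.27 and 0.22 in induced, 0.21 in dox control and 0.16 in both no dox libraries (difference 0.084, SE 0.030). The adjusted limma p was 1.0 for both events. In Ldha every induced library lay above every control of that age, and the share of all tested events separated within an age was not computed. With no dox replicate 2 of week 6 left out the number of members at an unadjusted p under 0.05 was 2 (1.44% against 4.33%). With no dox replicate 1 of week 12 or either week 20 induced library left out it was 3 (2.16% against 3.95% to 4.25%).

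Week 12 was the age with the most members at an unadjusted p under 0.05, 8 of 139 (5.76% against 6.04%), and 0 were called (background 0%). The 54-nt Opa1 exon was at 0.17 and 0.27 in induced, 0.46 in dox control and 0.37 and 0.53 in no dox libraries (difference -0.209, SE 0.066, limma adjusted p = 0.626). The 159-nt Mff exon, with the 60-nt exon next, was at 0.78 and 0.63 in induced, 0.87 in dox control and 0.87 and 0.81 in no dox libraries (difference -0.159, SE 0.051, limma adjusted p = 0.643). In both exons the induced libraries lay below all 3 controls of week 12, again with no share of all tested events computed. The 177-nt Phka1 exon was at 0.55 and 0.25 in induced, 0.62 in dox control and 0.70 and 0.52 in no dox libraries (difference -0.253, SE 0.112, limma adjusted p = 0.823), and 1 induced library lay within the controls. The count of 8 was 2 without week 12 no dox replicate 1 (1.44% against 5.63%) and 5 without week 20 no dox replicate 1 (3.6% against 5.94%).

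At week 20 limma called 0 members (background 0.0032%), and 4 had an unadjusted p under 0.05 (2.88% against 5.01%). Leaving out a week 20 induced library leaves 1 at that age, so no count is given for it. The 172-nt Mff exon was at 0.13 and 0.20 in induced, 0.23 in dox control and 0.29 and 0.24 in no dox libraries (difference -0.086, SE 0.030, limma adjusted p = 0.895). Both induced libraries were below all 3 controls, and the share of all tested events in that order was not computed. A first exon of Dnm1l was at 0.46 and 0.43 in induced, 0.59 in dox control and 0.50 and 0.57 in no dox libraries (difference -0.108, SE 0.044, limma adjusted p = 0.99).

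Whether the induced difference varied between ages was tested by the interaction in the same fit. It was called for 0 members (background 0.0032%), and 1 member, 0.719% against 4.14% of all tested events, had an unadjusted p under 0.05. That was the 111-nt Opa1 exon (limma adjusted p = 1.0), with fitted differences of -0.260 at week 6, -0.028 at week 12 and 0.205 at week 20. Arm and muscle are unbalanced within ages, so these differences rest in part on the fitted muscle term, 0.171 for this exon. For the 54-nt Opa1 exon the adjusted interaction p was 1.0, with differences of -0.133, -0.209 and -0.110. For the 172-nt Mff exon it was also 1.0, with -0.051, -0.073 and -0.086. The count of 1 depended on the settings and on single libraries. It was 6 on the logit of PSI (4.32% against 4.78%) and 3 with limma without variance trend or robust moderation (2.16% against 4.23%). Leaving out an induced library leaves 1 at its age, so no counts are given for those fits. Among controls, the count was 0 when no dox replicate 1 of week 6 was left out (background 4.11%). It was 2 for the replicate of the same number at week 12 (1.44% against 4.09%) and 3 for no dox replicate 2 of week 20 (2.16% against 4.68%). It was 4 for the dox control of week 12 (2.88% against 4.2%) and 2 for that of week 20 (1.44% against 5.01%).

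The 2 kinds of control were also set apart, since they differ in genotype and in doxycycline. Induced against dox control gave 0 calls (background 0%) and 6 members at an unadjusted p under 0.05 (4.32% against 4.38%), and induced against no dox 0 calls (background 0%) and 6 (4.32% against 6.02%). These comparisons share the induced libraries. Among the 6 members against dox control, the largest difference was that of a last exon event of Immt, 0.165 (SE 0.067). Against no dox the same event differed by -0.013 (SE 0.053), so the control kinds were unlike each other there. The 54-nt Opa1 exon averaged 0.272 in induced, 0.390 ± 0.061 (SD, n = 3) in dox control and 0.438 ± 0.078 (SD, n = 6) in no dox libraries. Its difference was -0.144 against dox control (limma adjusted p = 1.0) and -0.154 against no dox (limma adjusted p = 0.560). The 172-nt Mff exon averaged 0.137, 0.197 ± 0.029 (SD, n = 3) and 0.212 ± 0.046 (SD, n = 6), with differences of -0.066 (limma adjusted p = 1.0) and -0.072 (limma adjusted p = 0.544). In both exons the induced mean was below that of either control. The count against no dox was 3 without week 6 induced replicate 2 (2.16% against 4.46% of all tested events).

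Dox control against no dox, neither of which was induced, gave 0 calls (background 0%) and 4 members at an unadjusted p under 0.05 (2.88% against 3.58%). The largest fitted differences among the 4 were those of 2 last exon events of Immt, -0.192 (SE 0.083) and -0.178 (SE 0.071). In the first of these, the week 6 dox control, at 0.08, lay far below the other controls. The 78-nt Dnm1l exon averaged 0.423 ± 0.051 (SD, n = 3) in dox control and 0.535 ± 0.090 (SD, n = 6) in no dox libraries (fitted difference -0.147, limma adjusted p = 1.0). The 5′ splice site of Vdac3 was at 0.94 in every dox control and at 0.95 or 0.96 in every no dox library (fitted difference -0.022, limma adjusted p = 1.0). For Vdac3, 0.94 and 0.95 are adjacent printed values of PSI, so the gap between the groups may be set by rounding. The share of all tested events separated between these groups was not computed. With the dox control of week 6 left out the number of members at an unadjusted p under 0.05 was 2. It was also 2 with no dox replicate 1 of either week 6 or week 12 left out (each 1.44% against 3.6% to 4.09%).

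Muscles were compared within the fit of all libraries. Quadriceps against gastrocnemius gave 0 calls among members (background 0.0032%) and 7 at an unadjusted p under 0.05 (5.04% against 7.54%). The 111-nt Opa1 exon averaged 0.698 ± 0.076 (SD, n = 5) in quadriceps and 0.606 ± 0.153 (SD, n = 10) in gastrocnemius (fitted difference 0.171, SE 0.072, limma adjusted p = 0.649). The smallest p was that of a 105-nt exon of Immt (chromosome 6, 71852763 to 71852867), at 0.022 ± 0.0084 (SD, n = 5) in quadriceps and 0.011 ± 0.0032 (SD, n = 10) in gastrocnemius (difference 0.014, limma adjusted p = 0.576). Either week 20 induced library left out made the number at an unadjusted p under 0.05 12 (8.63% against 7.83%). Induced replicate 1 of week 6 left out made it 4 (2.88% against 6.42%). Induced replicate 2 of week 6 or the dox control of week 20 left out made it 3 (2.16% against 6.42% or 6.08%).

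Age in control muscle was the last comparison. Week 20 against week 6 gave 0 calls (background 0%) and 4 members at an unadjusted p under 0.05 (2.88% against 5.32%). Control means of the 111-nt Opa1 exon were 0.720, 0.650 and 0.573 at 6, 12 and 20 weeks (fitted difference of week 20 from week 6 -0.260, SE 0.101, limma adjusted p = 0.882). Those of the 172-nt Mff exon were 0.173, 0.193 and 0.253 (0.070, SE 0.030, limma adjusted p = 0.939), and those of the 159-nt Mff exon with the 60-nt exon next 0.783, 0.850 and 0.870 (0.114, SE 0.050, limma adjusted p = 0.939). At 20 weeks both no dox libraries were from quadriceps and at 6 weeks all 3 controls from gastrocnemius, so the differences rest on the fitted muscle term. The number was 1 when either week 6 induced library, the dox control of week 20 or no dox replicate 1 of week 12 was left out (0.719% against 5.05% to 5.74%). It was 2 when the dox control of week 12, no dox replicate 1 of week 20 or no dox replicate 2 of week 6 or of week 12 was left out (1.44% against 4.86% to 5.58%).

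Other genes of the same pathways were read from lists of 29 to 80 names, and limma called 0 of their events for induced against controls. At an unadjusted p under 0.05, other glycolysis and glycogen genes had 0 higher and 3 lower of 87 events (3.45%). Other fat oxidation genes had 0 higher and 3 lower of 75 (4%). Other genes of mitochondrial dynamics, carriers and import had 1 higher and 2 lower of 95 (3.16%). Other genes of pyruvate use, citrate cycle and respiratory chain had 5 higher and 1 lower of 102 (5.88%). The share of all tested events was 6.26%, above that of each list. Median differences were 0 in each list and in all tested events, but for -6e-04 in the dynamics list. The smallest p belonged to a 35-nt exon of Pdp1, the phosphatase that reactivates pyruvate dehydrogenase (chromosome 4, 11965614 to 11965648). It averaged 0.342 ± 0.164 over the 6 induced libraries and 0.117 ± 0.031 over the 9 controls (SD) (difference 0.225, SE 0.031, limma adjusted p = 0.107). Induced libraries lay between 0.16 and 0.51 and controls between 0.06 and 0.16. Another of the 5 higher events in that list was the same exon (difference 0.101, SE 0.017), so these events are not independent. In Apoo, a subunit of the complex that Immt organises, a 5′ splice site averaged 0.223 ± 0.064 in induced and 0.122 ± 0.057 in control libraries (difference 0.101, limma adjusted p = 0.290). Another 5′ splice site event of Apoo, which shares a site with it, was lower, at 0.157 ± 0.023 against 0.204 ± 0.029. Its difference was -0.048 (limma adjusted p = 0.762), and the Apoo events are not independent.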

How the data were processed

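The deposited table gives, per the file headers, a fraction from 0 to 1 for each splicing event and library, printed to 2 decimals, and its own name calls these fractions MISO output. Poly-A selected RNA of individual muscles was read as paired ends of 100 bases, per the labels' protocols. TopHat and the build mm10 are named in the submitters' processing notes. The sources used here give no versions, annotation or read minimum, and intervals, which need counts, are left out. The table holds 0 columns of other samples. Columns were matched to libraries by the library identifier in each title. Coordinates are on mm10, counted from 1.

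Gene IDs of first and last exon events were matched to symbols in a RefSeq table of GRCm38.p6, where 56 of 14660 such events found none. Events with 15 values were fitted with limma 3.58.1 in R 4.3.3 (variance trend, robust moderation), with a mean per week and arm, a muscle term, and the induced difference averaged over 3 weeks. Fits that separate the control kinds used condition, week and muscle. Tests were two-sided, p-values were adjusted by Benjamini and Hochberg over all 31267 events, and an event was called when its adjusted p was below 0.05 and PSI differed by 0.1 or more. The fit was checked on simulated data. Tables were handled with Python 3.11.15 and pandas 2.3.3.

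Events were named where they had the smallest unadjusted p in each direction, the widest range, the smallest interaction p or, for 14 genes set by name, a skipped or mutually exclusive exon of intermediate PSI. Events outside that rule (the last exons of Pkm, the pair of Esrra 3′ splice sites and the Ldha exons among them) were chosen after their values were seen. The members and lists were chosen with earlier results of these data known. Alternatives varied the scale, events tested, covariates, moderation, minimum difference, muscle, replicate block and single libraries.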

Additional observations from a re-analysis of the deposited data

Results flagged for a closer look

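In 95 groups of 4 to 10 libraries (induced or control, of the named events), a library was marked when its gap to the nearest other was a large part of the group's range by Dixon's 95% critical value. Chance marks about 1 in 20 groups, and 19 values, each of 1 event in 1 library, were marked. Many lie 1 printed step of 0.01 from the rest, where a gap is set by rounding.

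Larger gaps were found in 6 cases. The 75-nt Mff exon between the 89-nt exon and the exon at 82750520 was at 0.65 in week 6 induced replicate 1, with the other induced libraries at 0.26 or less. The 159-nt Mff exon was at 0.79 in week 20 no dox replicate 2 with the 75-nt exon before it, and at 0.83 in the same library with the 33-nt exon next. The 33-nt Mff exon after the 159-nt exon was at 0.16 in week 12 no dox replicate 1. A last exon event of Immt was at 0.08 in the week 6 dox control, with the other controls at 0.36 or more. The 83-nt Mfn2 exon was at 0.93 in week 12 no dox replicate 2.

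The others were at the ends of the scale. A last exon event of Dnm1l was at 0.97 in week 20 induced replicate 1 and at 0.93 in the week 6 dox control. In week 6 induced replicate 2 the 51-nt Gyg exon and a 39-nt exon of Phka1 (chromosome X, 102531922 to 102531960) were both at 0.03, and that Phka1 exon was at 0.02 in week 20 no dox replicate 2 and at 0.0 in the week 20 dox control. In week 20 no dox replicate 2 a first exon of Idh3a was at 0.02, a 207-nt exon of Ppard at 0.94 and a 125-nt exon of Slc2a4 at 0.97. In week 12 no dox replicate 2 the 105-nt Immt exon was at 0.03, the Pkm exons at 0.98 and retention of the 115-nt Slc2a4 intron at 0.0, which was 0.02 in the week 20 dox control.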

How the results depend on the processing

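The count of called members was 0 in each of the 10 comparisons and in all 215 combinations of comparison and alternative, leaving out single libraries included. Of the values of tested events under alternatives, 407 kept their direction and 1 turned. Retention of the Ppard intron was 0.0050 higher with quadriceps alone, where 1 induced library is set against 2 no dox libraries of week 20. The lowest adjusted limma p under any alternative was 0.0892, for the 83-nt Mfn2 exon without week 6 induced replicate 1. The 54-nt Opa1, 172-nt Mff and 51-nt Gyg exons kept an unadjusted limma p under 0.05 without any one of the 15 libraries, while the 83-nt Mfn2 exon did so for 6 of 15 and the 159-nt Mff exon, with the 60-nt exon next, for 7. The 8 members at an unadjusted p under 0.05 became 5 with gastrocnemius alone (3.6% against 4.94% of all tested events). No count is given for quadriceps alone, whose induced differences rest on 1 induced and 2 no dox libraries of week 20. A fit of events with mean PSI of 0.05 to 0.95 alone held 66 members in place of 139, so its counts are given as shares. For induced against controls 4 members had an unadjusted p under 0.05 (6.06% against 6.2% of all events in that fit). It was 2 at week 6 (3.03% against 4.18%), 5 at week 12 (7.58% against 6.09%) and 2 at week 20 (3.03% against 4.93%). Against no dox it was 3 (4.55% against 6.21%), between muscles 1 (1.52% against 6.84%) and between ages 2 (3.03% against 5.51%). Tested events with a mean PSI outside that range were not in it.

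Replicate numbers are shared by induced and no dox libraries. Deviations of same-numbered libraries from their group means correlated at 0.0096, -0.012 and 0.015 at 6, 12 and 20 weeks, so the numbers were not taken as pairs. With a replicate block on the 12 numbered libraries 0 members were called and 5 had an unadjusted limma p under 0.05 (3.6% against 5.78% of all tested events), the 159-nt Mff exon, with the 60-nt exon next, differed by -0.039, and the same libraries without the block, an alternative chosen after seeing the data, also gave 0 calls. PSI without counts gives events with few and with many reads the same weight.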
